A study of Homo sapiens with 14 samples.

Results

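The experiment described here put the native codon of leucine 558 (Leu558) back into High-abc, a version of the CFTR coding sequence with replaced synonymous codons, and asked how far that 1 codon brings back the ribosome pause of the wild-type sequence. Its members were taken from the library titles: 2 libraries of High-abc with the native Leu558 codon (titled WT-Leu558_within_High-abc, written WT-Leu558-in-High-abc below) and 5 of High-abc, 7 of the 14 libraries in the series. The 5 libraries of the wild-type sequence (WT) serve as the level to be regained. All constructs encode the same protein and were overexpressed in HEK293, an immortalized human embryonic kidney line, so the expression is not that of an epithelium that makes CFTR. The labels give the native codon as UUA through a further construct (High-Leu558, n = 2), in which it was changed to CUC; they do not list the codons of High-abc. The files hold reads on CFTR residues, so the cell line was not checked against other genes. The endogenous CFTR gene lies on chromosome 7 from 117480025 to 117668665 (GRCh38.p14), but positions below are residues of the protein, counted to 1480.

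CFTR is the chloride and bicarbonate channel mutated in cystic fibrosis. Leu558 lies in its first nucleotide-binding domain, NBD1, a cytosolic domain that binds ATP and begins to fold while the rest of the chain is still being made. Synonymous codons give the same amino acid but are decoded at different speeds, and UUA is one of the leucine codons used less often in human genes. In ribosome profiling a slow codon appears as a pile of ribosome-protected fragments (footprints), and occupancy, the reads at 1 residue over the mean of all residues in that library, measures that pile.

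The libraries with the native codon held 17447 and 6909 CFTR reads, and those of High-abc held between 2463 and 10757. An average residue therefore had between 1.66 and 11.8 reads per library in these 7 libraries. The reads carry no stated molecular identifiers, so the intervals and limits below cover counting error only. The labels do not say whether replicates were separate cultures, so the p-values rest on differences among libraries that may be technical only.

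Footprints came back at Leu558 and at the residue after it. At Leu558 the libraries with the native codon had 58 reads (0.332% of CFTR reads, 95% Clopper-Pearson interval 0.253 to 0.430) and 16 reads (0.232%, 0.132 to 0.376). The 5 High-abc libraries, replicates 1 to 5, had 1, 3, 1, 2 and 2 reads there, or 0.0180% to 0.0514%. Both libraries with the native codon lay above every High-abc library, as was so for 3.5% of the residues tested below. At residue 559 the libraries with the native codon had 75 reads (0.430%, 0.338 to 0.539) and 24 reads (0.347%, 0.223 to 0.516). High-abc replicates 1 to 5 had 1, 0, 0, 4 and 4 reads, and the 0 reads of replicates 2 and 3 allow a share of up to 0.0514% and 0.122%, taken as 3 reads of the library's total (the upper ends of their 95% Clopper-Pearson intervals are 0.0632% and 0.150%). The groups did not overlap at this residue either, and within each library with the native codon residue 559 held more reads than Leu558.

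The means were 0.282% ± 0.0713 (SD, n = 2) against 0.0297% ± 0.0154 (SD, n = 5) at Leu558, 9.49 times as high, and 0.389% ± 0.0583 against 0.0190% ± 0.0193 at residue 559, 20.4 times as high. Of 314 residues with enough reads to test, 2 passed an adjusted p of 0.05 in edgeR's quasi-likelihood test, 0.637% of those tested, and both rose; DESeq2 called 2 as well, and 3.82% had an unadjusted p under 0.05 in edgeR. They were Leu558 (log2 change 3.26, SE 0.74, edgeR adjusted p = 0.00777) and residue 559 (3.87, SE 0.73, edgeR adjusted p = 0.00072). Without replicate 1 of WT-Leu558-in-High-abc, the deeper of the pair, neither call held: the log2 changes became 2.91 (edgeR adjusted p = 0.527) and 3.67 (edgeR adjusted p = 0.0641).

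**Figure D1:**
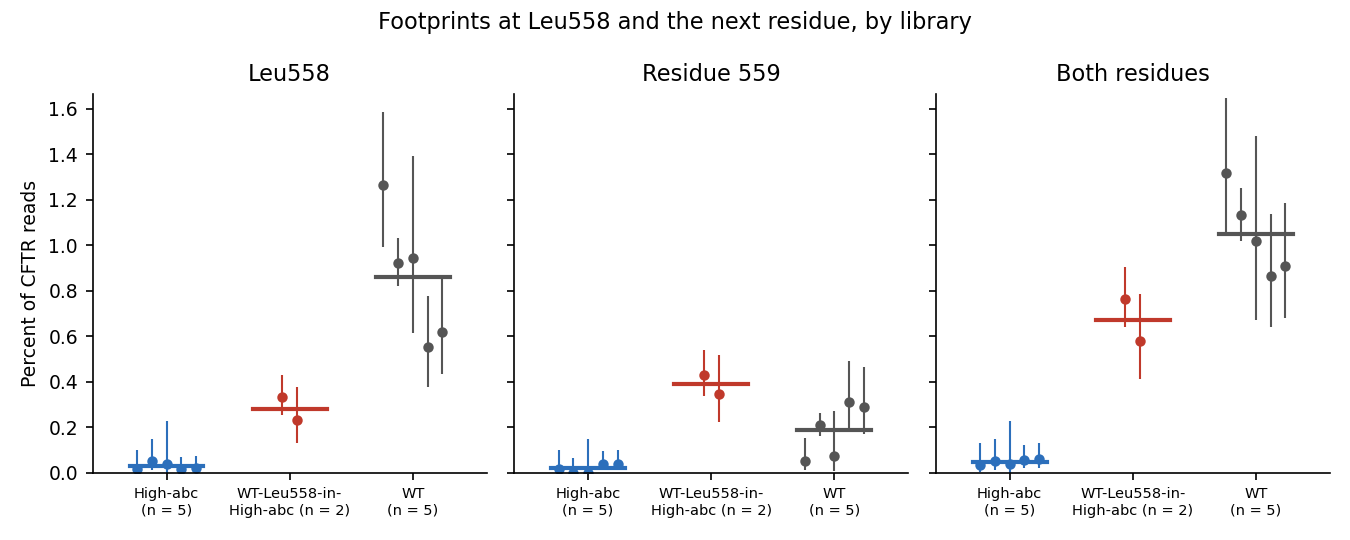
Percent of CFTR reads at Leu558, at residue 559 and at both together (y axis) in each library of High-abc, WT-Leu558-in-High-abc and WT; points are libraries, vertical bars their 95% Clopper-Pearson intervals and horizontal lines group means. Both libraries with the native codon lie above all High-abc libraries in the 3 panels; against WT they lie below at Leu558, above at residue 559 and below for both together.

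How reads were placed on residues is not given in the labels or file headers; Leu558 and residue 559 were also tested as 1 feature, in a fit of all 355 testable pairs of neighbouring residues. Together Leu558 and residue 559 held 133 reads (0.762%, 95% interval 0.639 to 0.903) and 40 reads (0.579%, 0.414 to 0.788) in the libraries with the native codon. In High-abc replicates 1 to 5 they held 2, 3, 1, 6 and 6 reads, 0.0361% to 0.0599%. The groups did not overlap, as was so in this direction for 3.1% of the pairs tested. The pair rose 13.8-fold, from 0.0487% ± 0.0101 (SD, n = 5) to 0.671% ± 0.130 (SD, n = 2). Its log2 change of 3.68 (95% interval 2.53 to 4.83, edgeR adjusted p = 6.17e-05) had rank 1 of the 355 pairs, whose median change was -0.04. It was the only pair to pass, 0.282% of those tested; 11 pairs had an unadjusted p under 0.05 in edgeR.

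This call did not rest on a single library. It passed without any 1 of the 7 libraries (log2 change 3.50 to 3.82, edgeR adjusted p from 0.00015 to 0.00787), including each of the 2 with the native codon, and with DESeq2 (log2 change 3.69, adjusted p = 2.63e-08). When one of those 2 is left out, the remaining library is assumed to vary like the other groups. In an exact permutation test of log2 occupancy over the libraries the pair rose by 3.53 (SE 0.21), with p = 0.0952, the smallest that 2 against 5 libraries allow when the smaller tail is counted on both sides of 21 relabellings, and 0.405 after Benjamini-Hochberg adjustment over the 17 permutation tests made here; 2 of 2 libraries lay above all 5.

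**Figure D2:**
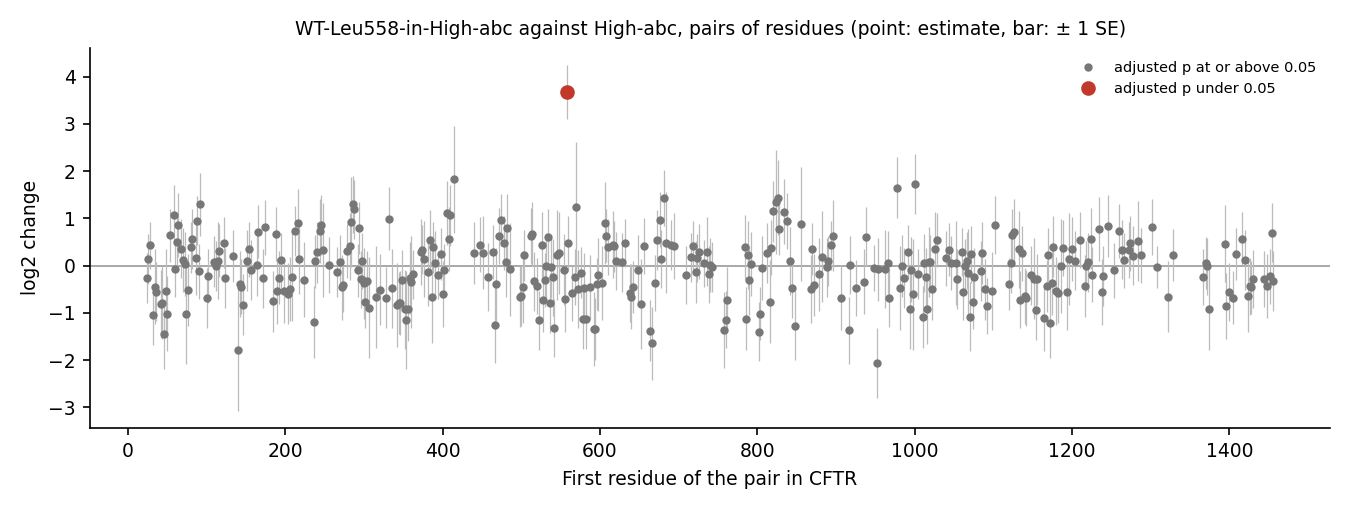
The log2 change from High-abc to WT-Leu558-in-High-abc for each of 355 pairs of neighbouring residues (y axis) along CFTR (x axis, first residue of the pair); bars are 1 standard error. The pair of Leu558 and residue 559, at 3.68, is the only one past an adjusted p of 0.05.

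Set against WT, the position read decides whether the libraries with the native codon stand low or high. The WT replicates 1 to 5 held 1.26%, 0.922%, 0.944%, 0.552% and 0.617% of their reads at Leu558 (467 reads in all), and each lay above both libraries with the native codon, an order found for 2.87% of the residues tested. The native codon in High-abc reached 32.8% of the WT mean there, and its occupancy had rank 49 of 1440 residues, against rank 7 in WT and rank 816 in High-abc. At residue 559 the order was turned: WT held between 0.0520% and 0.311%, and each library with the native codon lay above all 5 WT libraries (7.01% of residues tested), with a mean 207% of that of WT. Over both residues WT held 1.32%, 1.13%, 1.02%, 0.863% and 0.908%, again with no overlap (3.38% of pairs tested lay below in this way), and the libraries with the native codon stood at 64.0% of the WT mean. WT replicates 4 and 5 held the lowest WT shares at Leu558 and over both residues, so these percentages depend on which WT libraries enter. Counted from the High-abc level as 0 and the WT mean as 100%, replicates 1 and 2 of WT-Leu558-in-High-abc regained 71.4% and 53.1% of the difference for the pair.

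None of these differences from WT passed edgeR's test. The log2 change against WT was -1.62 at Leu558 (95% interval -3.03 to -0.21, edgeR adjusted p = 0.761), 0.99 at residue 559 (-0.28 to 2.27, edgeR adjusted p = 0.820) and -0.64 for the pair (-1.74 to 0.46, edgeR adjusted p = 0.967). The intervals are for 1 feature each and are not adjusted. For the pair the interval includes a level equal to WT, so a remaining gap was not resolved. Against WT, edgeR called 0 residues, 0 pairs and 0 windows of 10 residues (0% of each), with 16, 13 and 5 at an unadjusted p under 0.05; DESeq2 also called 0, 0 and 0. An exact permutation test of the pair's log2 occupancy against WT gave -0.64 (SE 0.22, p = 0.0952, the smallest possible, and 0.405 adjusted over 17), with 2 of 2 libraries below all 5 of WT.

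The footprints were divided between Leu558 and residue 559 in another proportion than in WT. With the native codon in High-abc, residue 559 held 56.4% and 60.0% of the reads of the pair. In WT replicates 1 to 5 it held 3.95%, 18.4%, 7.41%, 36.0% and 32.1%, so the groups did not overlap. The WT libraries ranged widely, and replicates 4 and 5 stood nearest to the libraries with the native codon. The difference between the group means was 38.6 percentage points (SE 6.65; exact permutation p = 0.0952, the smallest possible, and 0.405 adjusted over 17). High-abc had at most 6 reads at the pair in a library and was not compared.

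Read placement was checked at 20 other strong peaks, the local maxima of highest mean occupancy in the 12 libraries without WT-Leu558-in-High-abc, all more than 10 residues from Leu558. There the later residue held 8.62% and 9.21% of the reads of both residues with the native codon in High-abc, within the WT range of 4.27% to 13.1% (difference 1.35 percentage points, SE 1.62, exact permutation p = 0.571). This difference was 0.525, 0.644 and 2.74 points without WT replicates 1, 2 and 3, and 0.0696 and 2.70 points with 10 and 50 peaks. With reads summed over libraries, the later residue's share was higher than in WT at 15 of the 20 peaks and lower at 5, by -5.93 to 19.5 points. The same sums at Leu558 gave 57.2% against 18.8%. The gap at Leu558 was thus wider than at any of the 20 peaks, of which residue 1011 (30.9% against 11.5%) had the widest. WT was among the 12 libraries that set the peaks, so a low later share was favoured in WT there. The count of 15 against 5 cannot be told apart from that choice.

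**Figure D3:**
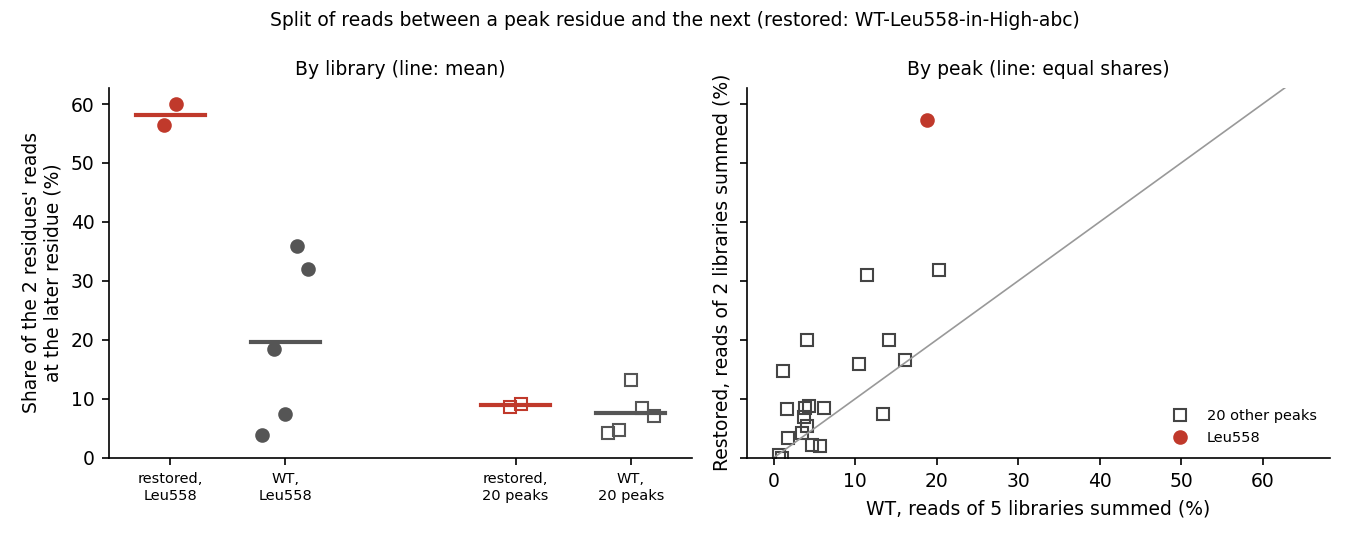
Share of the reads of 2 neighbouring residues that lie on the later one (y axis, percent). Left, each library at the Leu558 pair (filled) and over 20 other peaks (open), with lines at the means; right, the same share with reads summed over libraries in WT (x axis) and in WT-Leu558-in-High-abc (y axis), where Leu558 lies farther from the line of equal shares than the 20 other peaks.

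Around the pair no other residue passed the test against High-abc or WT. Among the 39 other residues within 20 of Leu558, both libraries with the native codon lay above every High-abc library at 1 (residue 551) and below at 1 (residue 575), 2.56% each; over all 1440 residues analysed these shares were 4.17% and 2.08%. Against WT they lay above every library at 7 of the 39 (residues 541, 542, 557, 561, 563, 567 and 569), 17.9% where the share over all residues was 5.62%, and below at 2 (564 and 568), 5.13% against 1.74%. Neighbouring residues were not taken as independent, and these shares are given as a description.

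Residue 557, just before the codon, had occupancies of 1.61 and 1.07 with the native codon, 0.445 to 5.92 (median 1.79) in High-abc and 0 to 0.767 (median 0.562) in WT. Residue 561, 3 after the codon, had 2.63 and 7.51, against 1.63 to 4.81 (median 3.16) in High-abc and 0.511 to 2.54 (median 1.69) in WT. Residue 569 had 2.80 and 2.36, against 1.20 to 6.69 (median 2.20) in High-abc and 0 to 1.69 (median 0.593) in WT. At these 3 residues both libraries with the native codon exceeded all of WT and overlapped High-abc in at least 1 library. Residue 564 was the opposite case, with 1.02 and 0.215 against 0.514 to 1.10 in High-abc and 1.64 to 3.59 in WT. Residue 560, the second after Leu558, had 0 reads in both, which allows shares of up to 0.0172% and 0.0434%.

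Of these 39 residues 11 were covered enough to test, and 0 passed in edgeR against either High-abc or WT. At an unadjusted p under 0.05 in edgeR there were 1 against High-abc (residue 543) and 4 against WT (561, 564, 569 and 570), where all tested residues gave 3.82% and 5.1%. Residue 570 was among those tested only through WT replicates 1 and 2 (15 and 65 reads), so its place among the 4 is no support. The filter asks for coverage in only a few libraries, so it also favours other residues high on 1 side. Mean occupancy at residue 564 was highest in WT, and at residues 541, 557, 561 and 569 it was lowest in WT. The counts here and the median changes below are partly set by that choice and are a description only. DESeq2 called no residue but Leu558 and 559. The median absolute log2 change of the 11 residues, 570 included, was 0.55 against High-abc and 1.57 against WT, where all 314 tested residues gave 0.48 and 0.52. Across the 39 residues, log2 occupancy (0.1 added) correlated with the High-abc mean at r = 0.807 and 0.684 in replicates 1 and 2, and with the WT mean at r = 0.582 and 0.469. Over the 1399 residues farther away the values were 0.814 and 0.723 for High-abc and 0.820 and 0.721 for WT. These correlations are across residues of the same libraries, which are not independent replicates, and carry no test.

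**Figure D4:**
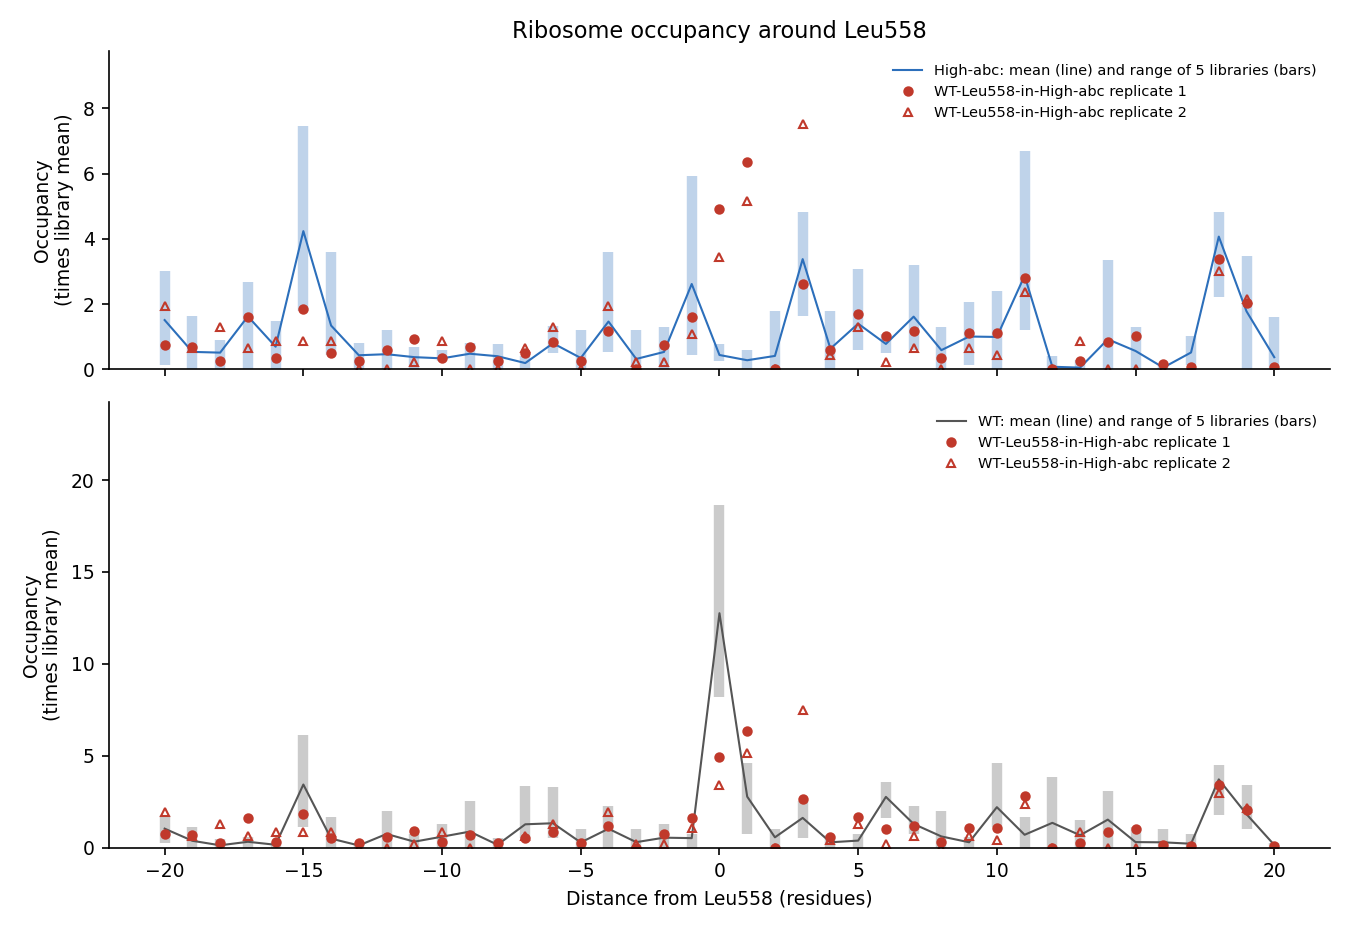
Occupancy (y axis, times the library mean) at each residue from 20 before to 20 after Leu558 (x axis, distance in residues); the line and bars give the mean and range of 5 High-abc libraries (top) or 5 WT libraries (bottom), and symbols the 2 libraries with the native codon. In the top panel both libraries lie above the High-abc range at Leu558 and residues 551 and 559 and below it at 575; in the bottom panel both lie below the WT range at Leu558, 564 and 568 and above it at 541, 542, 557, 559, 561, 563, 567 and 569. The y axes of the panels differ.

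The window of 10 residues that holds the codon (551 to 560) had 1.11% and 0.941% of reads with the native codon, above all of High-abc (0.250% to 0.805%), as were 2.78% of windows. Its log2 change of 1.08 (SE 0.40) did not pass in edgeR (adjusted p = 0.703), and 0 of 144 windows did (0%); 8 had an unadjusted p under 0.05, and DESeq2 called 0. The rise in the window lay in the pair. The other 8 residues held 0.350% and 0.362% with the native codon, within the High-abc range of 0.190% to 0.754%, while the pair took 68.6% and 61.5% of the window's reads, against 5.88% to 24.0% in High-abc and 57.6% to 82.6% in WT. The windows on either side changed by -0.77 (541 to 550, SE 0.38) and -0.05 (561 to 570, SE 0.39) on the log2 scale and did not pass (edgeR adjusted p = 0.703 and 0.986).

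A slow codon can hold back the ribosomes behind it and thin out those ahead, so density was compared in the 30 residues before Leu558 and the 30 after it, with Leu558 and the residues on both sides of it left out. Before the codon, mean occupancy was 0.820 and 0.751 with the native codon, against 0.950, 0.669, 1.06, 1.23 and 0.909 in High-abc replicates 1 to 5. After the codon it was 1.01 and 0.837, against 1.39, 1.54, 0.881, 1.40 and 0.613. In both stretches the libraries with the native codon lay within the High-abc range, and the High-abc libraries differed by up to 2.52 times among themselves.

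The log2 differences were -0.27 before (SE 0.16, exact permutation p = 0.381) and -0.26 after the codon (SE 0.29, exact permutation p = 0.476), and the ratio of after to before differed by 0.01 (SE 0.32, exact permutation p = 1). With stretches of 10 residues the first 2 differences were 0.10 and 0.03, so their direction is not fixed. Of 20 steps of 5 residues from 508 to 607, with the pair left out, only 518 to 522 did not overlap High-abc: 1.26 and 1.20 times the library mean against 1.54 to 6.01. Of the reads analysed, 58.5% and 55.2% lay at or beyond residue 560, against 56.3% to 61.8% in High-abc, a difference of -2.62 percentage points (SE 1.94, exact permutation p = 0.286). It was -4.26 points without replicate 1 of WT-Leu558-in-High-abc and -0.978 without replicate 2.

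**Figure D5:**
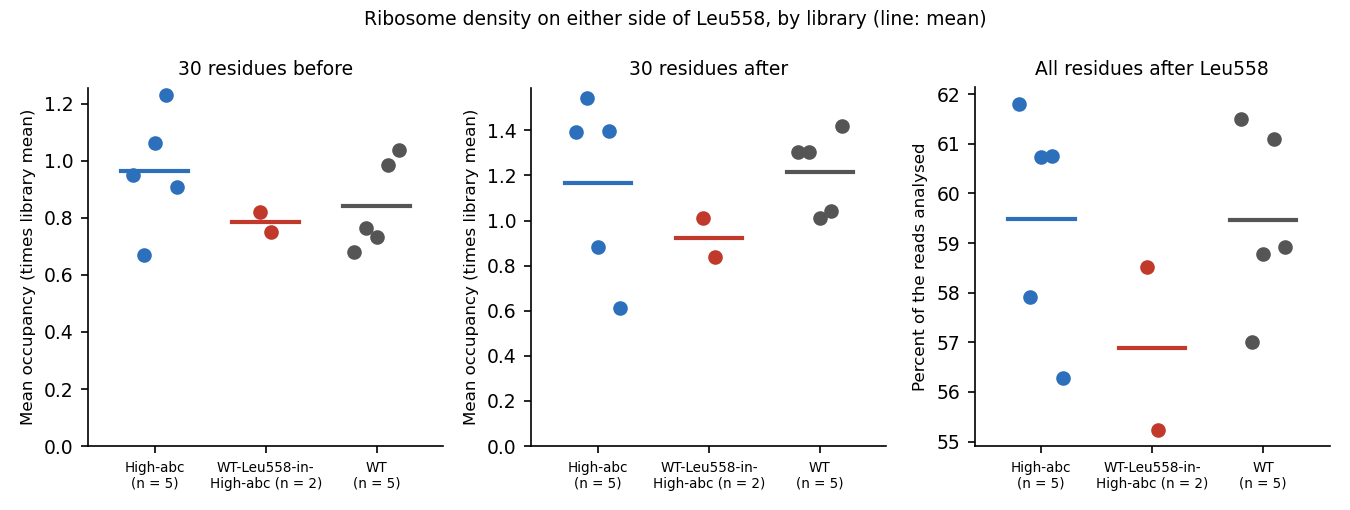
Mean occupancy in the 30 residues before and after Leu558, and the percent of reads from residue 560 on (y axes), for each library of High-abc, WT-Leu558-in-High-abc and WT; lines are means. In the first 2 panels the libraries with the native codon lie inside the range of the 5 High-abc libraries; the third axis does not start at 0.

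Away from the codon the leading peaks of High-abc were also high with the native codon. The 3 residues of highest occupancy with the native codon were 1308 (46.6 and 34.3 times the library mean), 948 (22.8 and 27.9) and 732 (18.8 and 19.1). In High-abc they had 40.9 ± 12.7, 26.9 ± 8.87 and 17.5 ± 6.86 (SD, n = 5), so the differences were under 1 SD. Residues 608 (18.3 and 16.7), 88 (15.7 and 19.3), 375 (16.6 and 15.9), 26 (11.2 and 15.2), 388 (14.6 and 11.4) and 1075 (14.7 and 9.66) followed in the leading 10, each with at least 1 library inside the High-abc range. Of the 10 most occupied residues 7 were also among the 10 of High-abc and 7 among those of WT, and of the leading 100, 68 and 70. High-abc and WT shared 8 of their leading 10 and 82 of their leading 100. Ranks with the native codon rest on means of 2 libraries and those of High-abc and WT on means of 5. The overlaps are therefore not of equal precision.

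The remaining member of that 10, residue 289, had 11.6 and 18.2 with the native codon. High-abc held 0.799 to 17.0 (median 3.34) there, so the groups overlapped. The window around it, 281 to 290, held 1.87% and 2.50% of reads against 0.361% to 2.57% in High-abc. Its log2 change of 1.15 (SE 0.57) did not pass (edgeR adjusted p = 0.703), but it became the only window called when High-abc replicate 5, the highest there, was left out (log2 change 1.98, edgeR adjusted p = 0.0415).

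No tested residue other than Leu558 and 559 passed in edgeR or DESeq2 against High-abc, though 12 of the 314 had an unadjusted p under 0.05 in edgeR. More than 10 residues from the codon, the highest fitted values were at residues 89 (log2 change 1.92, SE 0.78), 415 (1.90, SE 1.26), 1000 (1.76, SE 0.74), 683 (1.40, SE 0.67) and 58 (1.29, SE 0.71), each with an edgeR adjusted p of 0.995. The lowest fitted values were at residues 1181 (-2.43, SE 1.46), 47 (-2.24, SE 0.86), 759 (-2.04, SE 1.05) and 666 (-1.91, SE 0.84), with the same adjusted p, and at residue 570. Residue 1000 had 28 and 19 reads with the native codon, 2.38 and 4.08 times the library mean, against 0.257 to 1.24 in High-abc and 0.256 to 3.94 in WT. Its groups did not overlap, as was so for 3.5% of tested residues in that direction. Residue 570 had 0 reads with the native codon and 3 in all of High-abc, so no fold is given. Among the WT libraries, reads there stood in replicates 1 and 2 alone (15 and 65).

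By regions of the protein, whose bounds are rounded and only approximate the domains, none passed. None could have, since 2 against 5 libraries allow no exact permutation p under 0.0952. In the NBD1 region that ends just after Leu558 (501 to 560) both libraries with the native codon lay within the High-abc range, at 4.04% and 4.07% against 3.30% to 6.76%. The NBD1 region before it (391 to 500) held 6.78% and 7.27%, against 4.73% to 7.18%. The membrane domains, which form the pore, held 24.9% and 26.8% (first, 81 to 390) and 22.5% and 21.6% (second, 841 to 1200), against 19.7% to 26.2% and 21.9% to 28.0%. Over the 8 regions the exact permutation p ran from 0.190 to 1 and the adjusted p from 0.508 to 1.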

How the data were processed

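Ribosome footprints (RNase I digestion, linker ligation, cDNA circularization and PCR, per the labels' protocols) were analysed in the 14 libraries of 4 constructs. The deposited files give the read count per CFTR residue and the percent of CFTR-mapped reads; the authors' percent equalled the count over the library total within 0.0005, so percentages were recomputed from the counts. Residues without a line were taken as 0. HISAT2 and hg38 are named in the submitters' processing notes; how reads were assigned to residues is not given in the sources used here. Replicates were not pooled, and 0 pairs of libraries were identical.

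Residues 21 to 1460 (1440) were analysed, without 20 at either end. Residues, pairs laid so that Leu558 and 559 form 1 (719) and windows of 10 (144) went into edgeR 4.0.16 (run in R 4.3.3 with limma 3.58.1): TMM, filterByExpr, quasi-likelihood fit of all 14 libraries by group, Benjamini-Hochberg adjustment over all features tested at 0.05. The filter left 314 residues with 64.5% of the reads and 355 pairs. Libraries of a group varied by 53.4% (residues), 45.7% (pairs) and 31.2% (windows) beyond counting error, from edgeR's common dispersion. Standard errors are the change divided by the square root of F; intervals on log2 changes use the fit's degrees of freedom. Other quantities were tested by exact permutation of libraries, the two-sided p being the smaller tail counted on both sides (Python 3.11.15 with scipy 1.17.1), with 0.5 reads added at Leu558 and the pair; standard errors there come from the spread of both groups. DESeq2 1.42.0 (Wald test) was an alternative, beside other scalings, filters, windows, flanks, inclusion of the ends, removal of the 1% of residues with most reads, a fit of 2 groups, a block for the replicate number, and removal of single libraries. The edgeR fits were also run on simulated counts with the same spread for all residues and no library structure, and no support is drawn from that. Residues named are Leu558 and its neighbours, those past the threshold, the 5 with the largest change each way, the leading 10 by occupancy and the 8 regions. Other leucines, a group also planned, were not used here, since no protein sequence was used. The members, the lists and the tests were chosen with earlier results of these data known.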

Additional observations from a re-analysis of the deposited data

Results flagged for a closer look

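A Dixon test over 37 sets of values, each from the 5 libraries of High-abc or of WT, set 2 libraries apart; about 1 set in 20 would be set apart by chance. For the last region of CFTR (1201 to 1460, NBD2 and the C-terminus) High-abc replicate 2 gave 11.0% of reads where the remaining 4 gave 14.6% to 15.9%. WT replicate 2 was as low in that region, at 10.9% where the remaining 4 gave 14.9% to 17.5%, but was not set apart by the test. In depth, WT replicate 2 stood apart with 32630 reads on CFTR, the remaining 4 having 2647 to 5839. WT-Leu558-in-High-abc has too few libraries for this test.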

How the results depend on the processing

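Of 406 recomputed values for 31 results, 376 kept their direction and their side of the threshold (counts: within 1.5 times). For the 17 results from permutation tests only the direction could change, since their p could not fall under 0.0952. The cause of the changes in the remaining values was not tested except where fewer residues or libraries entered. The pair of Leu558 and residue 559 passed against High-abc in all 15 alternatives (log2 change 3.38 to 3.82). Testing only residues that averaged 20 reads or more left 1 call against High-abc, because residue 559 fell under that minimum. Without a filter 1 residue (822) was called against WT, where the count was 0 with it. Leaving out 1 library gave 0 to 2 residues (0 without WT-Leu558-in-High-abc replicate 1) and 0 to 1 windows (1 without High-abc replicate 5) against High-abc.

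With the replicate number as a block, edgeR called 28 residues, 33 pairs and 26 windows against High-abc and 30, 25 and 21 against WT, among them Leu558 against WT (edgeR adjusted p = 0.00102, log2 change -2.03). Whether the numbers pair the libraries is not known. With 2 libraries the deviations mirror each other, and same-numbered ones correlated at 0.0306 and -0.0342 with High-abc, so this check cannot decide it. Across the tested residues, log2 read shares of WT-Leu558-in-High-abc replicates 1 and 2 correlated at 0.808 and 0.759 with High-abc replicate 5. With replicate 4 the values were 0.743 and 0.614, and with replicates 1 to 3 they ran from 0.288 to 0.475. Against WT they were 0.723 and 0.552 (replicate 4), 0.606 and 0.578 (5), 0.637 and 0.523 (2) and 0.293 to 0.448 (1 and 3). High-abc replicates 4 and 5 were the deepest of that group, and the cause was not tested. Between WT and High-abc, same-numbered libraries were close in some quantities. At the 20 other peaks the later residue's share was 4.27%, 4.75%, 13.1%, 8.52% and 7.14% in WT replicates 1 to 5. In High-abc replicates 1 to 5 it was 4.60%, 5.01%, 9.96%, 8.86% and 8.18%. Whether same-numbered libraries were prepared together was not tested. Differences within numbers gave -0.652 for the ratio of after to before and 0.224 for the NBD1 region 501 to 560, both of turned sign.

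Other values also turned sign. With flanks of 10 residues the differences were 0.10 before, 0.025 after and -0.0754 for their ratio. That ratio was -0.243 with 5 residues on either side left out, -0.0797 with residues capped at 5 times the library mean, and -0.191 to 0.253 with 1 library left out. The region 501 to 560 gave 0.0384 without the most covered 1% of residues. With 1 library left out, regions ran from -0.161 to 0.0970 (501 to 560), -0.200 to 0.0124 (N-terminal), -0.167 to 0.0368 (NBD1 last part), -0.00064 to 0.0687 (regulatory) and -0.0278 to 0.118 (NBD2 and C-terminal), all log2 differences. Depth limits the single residues: 314 of 1440 were tested, and 9 reads in all stood at Leu558 in High-abc. The 2 libraries with the native codon leave permutation tests, as computed here, no p under 0.0952.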
